A study of Homo sapiens with 12 samples.

Results

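Homologous recombination repairs broken DNA by copying an intact sister strand. The broken end is trimmed to single-stranded DNA, mediator proteins help it pair with the intact copy, and helicases and nucleases resolve the joined molecules. The Fanconi anemia pathway works on crosslinks between the strands: a core complex of FANC proteins and an E2 enzyme attach ubiquitin to the FANCD2 and FANCI pair, and nucleases then open the crosslink for repair by recombination. Both routes act mainly in S and G2 phase, and in breast tissue they are known for the cancer susceptibility genes BRCA1, BRCA2 and PALB2. The 35 genes described here form a list of symbols named for their place in these routes, and the rule uses no measured value. Each was matched to exactly 1 of the 57820 genes in the count tables, and all 35 passed the filter on low counts in every comparison. They fall into 7 roles: mediators and BRCA1 partners, recombination paralogs, RAD54 and RAD52 proteins, resection and dissolution factors, kinases, the Fanconi core with its E2 enzyme, and the ubiquitinated pair with the nuclease scaffold SLX4.

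RNA came from T47D-MTVL cells, a human luminal breast cancer line that carries an MMTV-driven luciferase reporter in its genome, kept in charcoal-treated serum with no progestin. There were 12 libraries in 6 groups of 2. For poly(A) RNA, 1 experiment compared an siRNA against PADI2 (siPADI2) with a control siRNA (siCtrl). The other compared the R1810A mutant with the wild type (WT) of an HA-tagged RNA polymerase II (RNAP2) that resists alpha-amanitin, both brought in by transfection. In both RNAP2 groups the polymerase was expressed for 24 hours and alpha-amanitin, which blocks the cells' own RNAP2, was then present at 6 µg/ml for 12 hours. Chromatin-bound RNA was taken from siPADI2 and siCtrl cells. PADI2 converts arginine in proteins to citrulline, and R1810 is such an arginine, in the tail of the largest RNAP2 subunit. The transfected cells keep their own RNAP2 gene, and all groups are of 1 cell line. Whether the 2 libraries of each group were grown as separate cultures is not stated, so p-values measure the spread between these libraries only, which may be technical.

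Poly(A) libraries held 44.3 to 133 M counts (M, 1000000) and chromatin libraries 2.72 to 7.04 M, the siPADI2 chromatin libraries being the smallest. Among poly(A) libraries siCtrl replicate 1 was the smallest, and the next smallest held 113 M. Fits without siCtrl replicate 2 therefore leave that small library as the only poly(A) siRNA control. PADI2 was at 1.83 and 1.88 CPM (counts per 1000000, scaled with the trimmed mean of M values, TMM) in siPADI2 poly(A) libraries, against 24.0 and 22.6 CPM in siCtrl. In chromatin RNA it was at 8.52 and 14.2 CPM in siPADI2 libraries, against 34.9 and 32.5 CPM in siCtrl. It was also low, at 3.13 and 2.35 CPM, in the libraries labelled R1810A, against 48.9 and 50.7 CPM in WT. That label names no PADI2 siRNA, so every direction drawn from those libraries carries the doubt of what they are. POLR2A, the gene of the largest RNAP2 subunit, was also lower there, at 361 and 363 CPM, against 514 and 528 CPM in WT (log2 fold change −0.53). After siPADI2 its poly(A) level was lower too (−0.53). The share of these counts from the transfected polymerase was not tested. Of 10 luminal markers 7 were lower and 1, EPCAM, higher in siPADI2 poly(A) libraries, where 27.9% and 28.8% of all genes tested were. Their sum was 6461 to 6935 CPM in siPADI2 libraries, against 11060 to 12260 CPM in siCtrl. KRT19 gave the most to that gap (1132 and 978 CPM, against 3926 and 3237 CPM in siCtrl). In the libraries labelled R1810A 7 were lower and 2 higher (24.3% and 22.6% of all genes tested), with a sum of 7071 to 7882 CPM, against 10890 to 11450 CPM in WT. Of 6 basal or mesenchymal markers 3 had enough poly(A) counts to be tested. TP63 (log2 fold change −1.40) and VIM (−0.95) were lower after siPADI2, and 0 of the 3 were called in the libraries labelled R1810A. The part of these markers in the results below was not tested, and the blood genes PTPRC and CD3E summed to at most 0.0561 CPM in every poly(A) library.

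Levels of the repair genes differed widely when set per kilobase of exon. In siCtrl poly(A) RNA the E2 enzyme gene UBE2T had the highest level, 20.7 CPM per kb, followed by NBN, a subunit of the MRE11 end-trimming complex, at 18.5 and RAD50, its second subunit, at 13.2 CPM per kb. The core complex gene FANCF followed at 12.6 CPM per kb. At the low end were RAD54B at 0.613 and XRCC2 at 0.720 CPM per kb. RAD54B was lowest in all 4 poly(A) groups, but 51.3% of its exonic bases are shared with FSBP on the same strand. Its level and rank per kb are therefore uncertain. UBE2T and NBN held 2 of the first 4 ranks in each of the 4 groups.

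In siPADI2 poly(A) RNA 16 of the 35 repair genes were lower than in siCtrl, 8 were higher and 11 did not pass (quasi-likelihood test of edgeR, p adjusted by Benjamini-Hochberg over all genes, threshold 0.05). Of all 18720 genes tested, 27.9% were called lower and 28.8% higher, so calls are frequent in this comparison in both directions. The median log2 fold change of the 35 was −0.16, with a range from −1.26 for EXO1 to 1.23 for FANCE, against a median of 0.01 for all genes. Against WT, the libraries labelled R1810A had 23 of the 35 lower, 4 higher and 8 not called, where 24.3% of 19202 genes were called lower and 22.6% higher (46.9% in all). Here the median of the 35 was −0.37, against −0.02 for all genes. Over both experiments, which share no library, 15 repair genes were lower in each and 2 (FANCE and FANCF) were higher in each, where 16.2% of the 18260 genes tested in both were lower in both and 15.2% were higher in both.

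When a change of more than 1.5-fold was asked for, 6 repair genes were lower and 3 higher in siPADI2 poly(A) RNA (10.1% and 8.74% of all genes). The 6 were EXO1, FANCD2, RAD54L, FANCI, CHEK2 and BRCA1, and the 3 were FANCE, RAD51D and ATM. Of the 35, 8 were lower beyond that fold in the libraries labelled R1810A and 0 higher (5.42% and 5.54% of all genes). All 6 of the siPADI2 set were among the 8, and XRCC2 and BRIP1 were the others.

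Markers of cycling cells fell alongside the repair genes that were lower. Of 12 proliferation markers 11 were lower and 0 higher in siPADI2 poly(A) RNA, with a summed level of 348 to 368 CPM in siPADI2 libraries and 584 to 627 CPM in siCtrl. BUB1, a spindle checkpoint kinase gene, was the one not called (log2 fold change −0.23, adjusted p = 0.0753). All 12 were lower in the libraries labelled R1810A, at 746 to 797 CPM summed, against 1271 to 1302 CPM in WT. The part of cycling in the falls of the repair genes was not tested, and in bulk RNA fewer cells in S and G2 phase and less RNA per cell cannot be told apart.

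**Figure D1:**
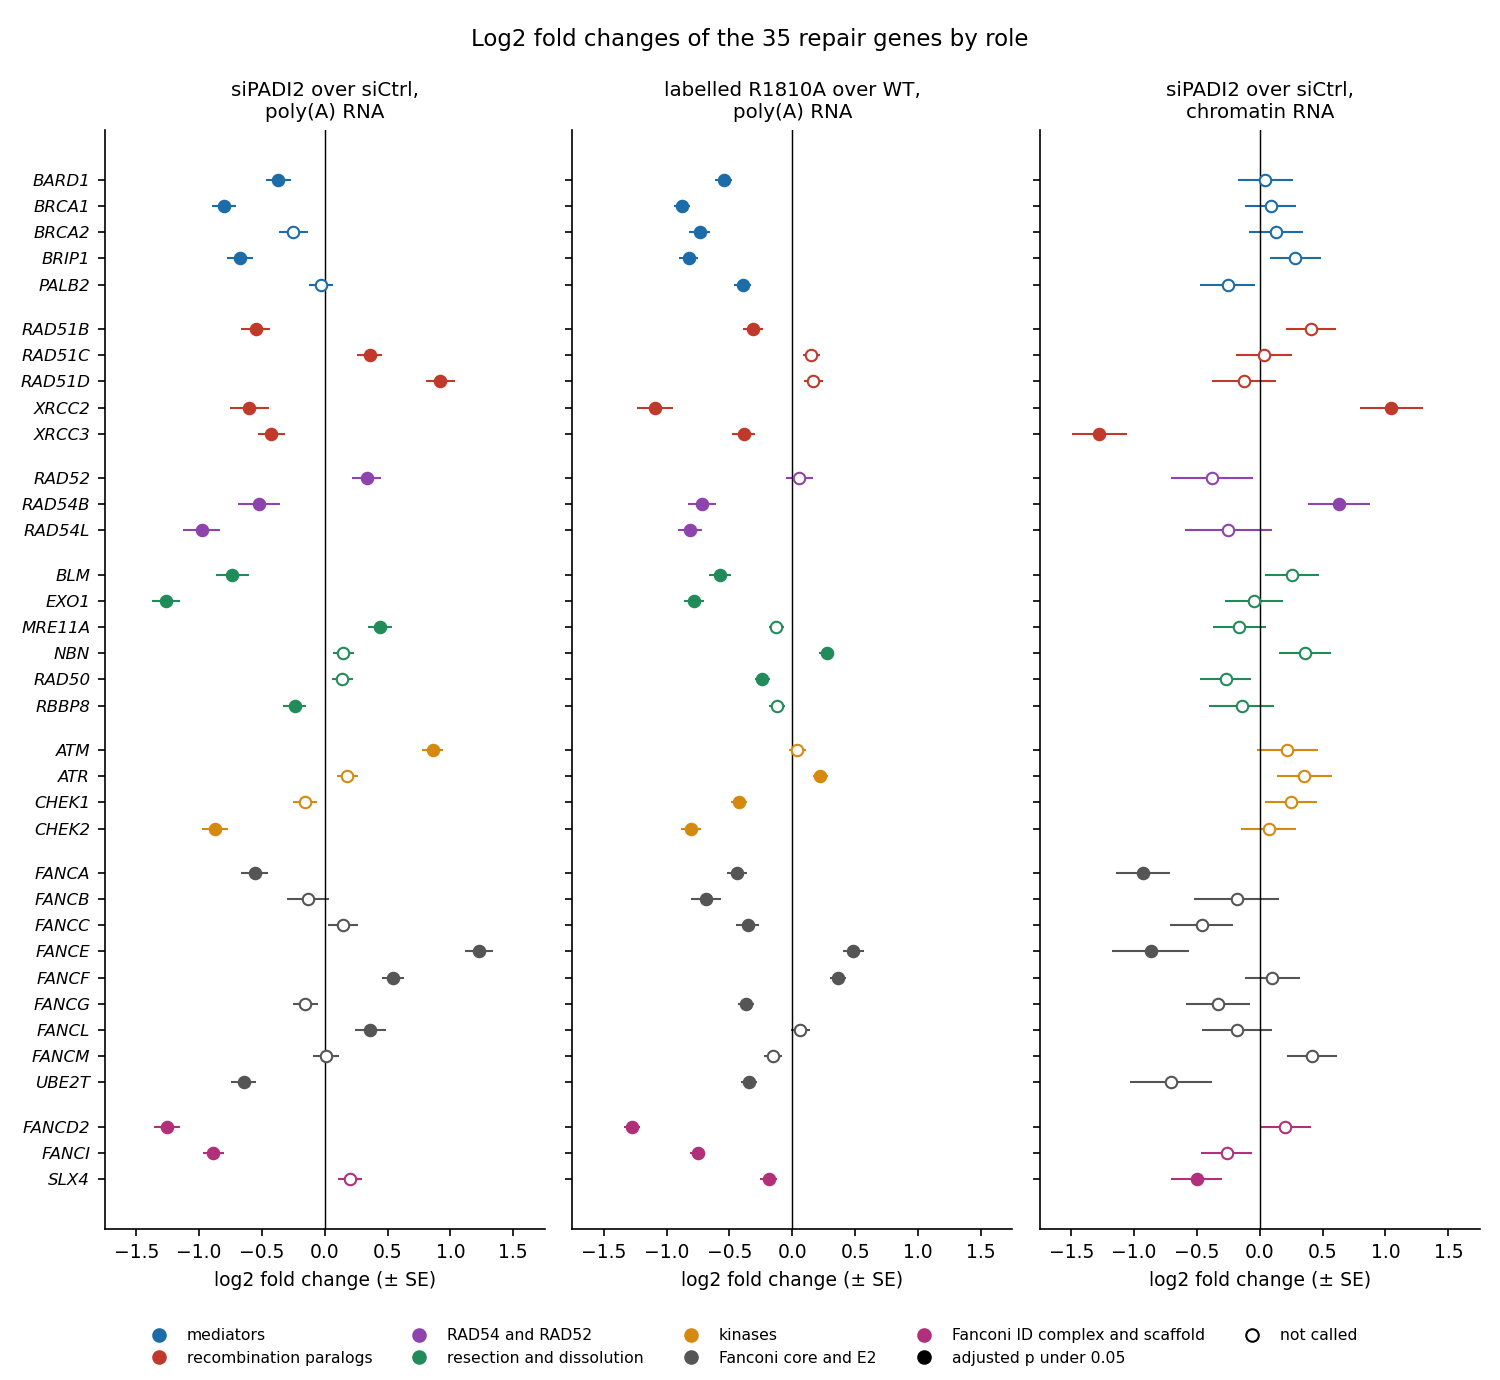
Log2 fold changes (x axis, with bars of 1 SE) of the 35 repair genes (y axis, grouped by role) for siPADI2 over siCtrl in poly(A) RNA, the libraries labelled R1810A over WT in poly(A) RNA, and siPADI2 over siCtrl in chromatin RNA, each from 2 against 2 libraries. Filled points passed an adjusted p of 0.05: 16 lower and 8 higher, 23 lower and 4 higher, and 4 lower and 2 higher.

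The promoters of 3 genes that fell in both experiments and of FANCE, which rose in both, are shown because FANCD2, EXO1 and FANCE lie at the ends of the range after siPADI2, XRCC2 had the second lowest fold change in the libraries labelled R1810A, and the first 3 hold letters known as E2F binding words, E2F being the factor family that drives genes of S phase. Each window runs from 250 bases before to 50 bases after the RefSeq start, in build GRCh38.p14, on the gene's strand, 5′ to 3′. Capitals mark matches to TTTCGCGC, TTTGGCGC, TTTCCCGC or TTTGCCGC (E2F), CCAAT (NF-Y) or TTTGAA (the cell cycle homology region), searched on both strands. FANCD2 is at chr3:10026187-10026486 (plus strand), EXO1 at chr1:241847954-241848253 (plus), XRCC2 at chr7:152676092-152676391 (minus) and FANCE at chr6:35452088-35452387 (plus).
FANCD2: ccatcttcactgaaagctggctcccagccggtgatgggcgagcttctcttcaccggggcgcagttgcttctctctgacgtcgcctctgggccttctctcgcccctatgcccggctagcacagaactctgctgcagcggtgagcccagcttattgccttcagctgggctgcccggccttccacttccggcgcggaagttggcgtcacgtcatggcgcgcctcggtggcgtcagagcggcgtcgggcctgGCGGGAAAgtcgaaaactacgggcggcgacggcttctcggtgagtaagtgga
EXO1: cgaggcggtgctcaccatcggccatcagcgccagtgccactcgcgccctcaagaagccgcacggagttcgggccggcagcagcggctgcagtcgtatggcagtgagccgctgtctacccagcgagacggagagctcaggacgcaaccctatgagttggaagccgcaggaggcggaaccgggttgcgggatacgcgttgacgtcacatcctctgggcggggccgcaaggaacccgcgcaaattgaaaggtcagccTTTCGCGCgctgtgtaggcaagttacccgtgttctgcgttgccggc
XRCC2: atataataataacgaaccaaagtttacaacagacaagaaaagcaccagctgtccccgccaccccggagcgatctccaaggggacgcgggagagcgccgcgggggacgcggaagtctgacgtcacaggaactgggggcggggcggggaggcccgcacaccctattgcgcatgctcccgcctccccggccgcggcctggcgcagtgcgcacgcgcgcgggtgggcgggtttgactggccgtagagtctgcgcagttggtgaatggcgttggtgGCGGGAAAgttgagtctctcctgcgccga
FANCE: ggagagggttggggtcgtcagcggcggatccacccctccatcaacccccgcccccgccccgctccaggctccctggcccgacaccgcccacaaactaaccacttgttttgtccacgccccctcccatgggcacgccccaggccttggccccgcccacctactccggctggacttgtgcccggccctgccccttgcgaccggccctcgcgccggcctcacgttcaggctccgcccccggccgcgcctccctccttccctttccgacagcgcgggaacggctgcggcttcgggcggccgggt

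The E2F word began 2 bases before the start of FANCD2 and 4 and 21 bases after those of EXO1 and XRCC2, and the FANCE window held none of the 3 motifs. Of the 35 genes, 32 had a promoter in the RefSeq table. E2F words were in 4 of the 13 matched genes that were lower in both experiments (30.8%; FANCD2, EXO1, XRCC2 and FANCA) and in 1 of the 19 others (FANCC). Among the promoters of 12277 genes tested in siPADI2 poly(A) RNA, 5.02% held one, and 3.31% of all 35116 promoters did. NF-Y words were in 7 of the 13 genes lower in both (53.8%). They were in 31.6% of the 19 others, 36.3% of promoters of tested genes and 34.6% of all promoters. Cell cycle homology words were in 2 of the 13 (15.4%). They were in 10.5% of the 19 others, 10.1% of promoters of tested genes and 15.2% of all promoters. No motif matches overlapped. These are matches of letters in 1 window per gene, the first listed for it, and were not tested for binding. Whether that start is the one used in these cells was not tested. This holds also for BRCA1, whose window (chr17:43170278-43170577) held none of the 3 motifs. That window was not checked against the 5′ end of the counted BRCA1 gene and may lie away from it. BRCA1 is counted among the 13 as a gene without a match, so the promoter it uses cannot be said to lack these words.

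Among the mediators and their partners, BRCA1 (ENSG00000012048.15, hg19 chr17:41196312-41277500), the ubiquitin ligase that steers breaks to recombination, was at 19.2 and 19.8 CPM in siPADI2 libraries, against 33.2 and 34.8 CPM in siCtrl (log2 fold change −0.80, SE 0.0948, edgeR adjusted p = 2.14e-09). BRCA1 was at 35.5 and 37.9 CPM in the libraries labelled R1810A, against 65.6 and 69.1 CPM in WT (−0.88, SE 0.0617, adjusted p = 1.34e-07). The groups did not overlap in either experiment. BARD1, the obligate partner of BRCA1, was lower in both as well (−0.37, adjusted p = 0.00142, and −0.55, adjusted p = 2.23e-05), and so was BRIP1, a helicase that binds BRCA1 (−0.67, adjusted p = 5.12e-07, and −0.82, adjusted p = 9.85e-07). BRCA2, the mediator that PALB2 brings to breaks, was at 7.66 and 8.99 CPM in siPADI2 libraries, against 10.2 and 9.69 CPM in siCtrl, and did not pass (−0.25, adjusted p = 0.0654), although it did with the GC correction (−0.41, adjusted p = 0.00212) and without siPADI2 replicate 2 (adjusted p = 0.0369). It was at 7.65 and 7.83 CPM in the libraries labelled R1810A, against 12.2 and 13.6 CPM in WT, a fall of 0.74 on the log2 scale (adjusted p = 1.06e-05). PALB2, the link between BRCA1 and BRCA2, had the same pattern, with −0.03 (adjusted p = 0.792) after siPADI2 and −0.40 (adjusted p = 0.000366) in the libraries labelled R1810A. All 5 genes of this role were therefore lower in the libraries labelled R1810A and 3 of 5 were lower after siPADI2.

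The 5 recombination paralogs, which help strand exchange to start, split after siPADI2. RAD51D (ENSG00000185379.16, hg19 chr17:33426811-33448541) was at 14.1 and 13.6 CPM in siPADI2 libraries, against 6.86 and 7.66 CPM in siCtrl (log2 fold change 0.92, SE 0.113, edgeR adjusted p = 5.86e-09), and RAD51C was higher too (0.36, adjusted p = 0.00214). XRCC2 (ENSG00000196584.2, hg19 chr7:152341864-152373250) was at 2.22 and 2.46 CPM in siPADI2 libraries, against 3.14 and 3.85 CPM in siCtrl (−0.60, SE 0.156, adjusted p = 0.00124, but 0.0969 without siCtrl replicate 2). RAD51B (−0.55, adjusted p = 9.70e-05) and XRCC3 (−0.42, adjusted p = 0.00119) were lower. As background, the RAD51B, RAD51C, RAD51D and XRCC2 proteins form 1 complex, so genes of a single complex changed in both directions. In the libraries labelled R1810A XRCC2 was at 3.90 and 3.30 CPM, against 8.61 and 6.72 CPM in WT (−1.09, SE 0.141, adjusted p = 0.000252). RAD51B (−0.31, adjusted p = 0.00573) and XRCC3 (−0.39, adjusted p = 0.00306) were lower there too. Without WT replicate 2 or R1810A replicate 1 RAD51B did not pass (adjusted p = 0.0567 and 0.0501). RAD51D (0.17, adjusted p = 0.0823) and RAD51C (0.15, adjusted p = 0.0711) did not pass in that experiment. Of the exonic bases of RAD51D 24.3% are shared with another annotated gene on the same strand, so its counts are uncertain.

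RAD54L, a motor protein that drives strand invasion, was at 2.25 and 2.17 CPM in siPADI2 libraries, against 4.46 and 4.27 CPM in siCtrl (log2 fold change −0.98, SE 0.149, edgeR adjusted p = 5.07e-07). It was at 4.57 and 4.45 CPM in the libraries labelled R1810A, against 8.22 and 7.63 CPM in WT (−0.81, SE 0.0956, adjusted p = 1.33e-05). Its relative RAD54B was lower in both (−0.52, adjusted p = 0.00816, and −0.72, adjusted p = 0.000151). RAD54B did not pass after siPADI2 without siCtrl replicate 2 (adjusted p = 0.229) or siPADI2 replicate 1 (0.162), and 51.3% of its exonic bases are shared with FSBP on the same strand, so its counts are uncertain. RAD52, which anneals single strands, was at 9.19 and 10.0 CPM in siPADI2 libraries, against 8.08 and 7.28 CPM in siCtrl (0.33, adjusted p = 0.0150). That call was lost without siCtrl replicate 2 (adjusted p = 0.173) or siPADI2 replicate 2 (0.126), and RAD52 did not pass in the libraries labelled R1810A (0.06, adjusted p = 0.705).

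EXO1 (ENSG00000174371.12, hg19 chr1:242011269-242058450), the nuclease of long-range resection, had the lowest fold change of the 35 genes after siPADI2. It was at 7.33 and 6.52 CPM in siPADI2 libraries, against 15.7 and 17.4 CPM in siCtrl (log2 fold change −1.26, SE 0.112, edgeR adjusted p = 1.82e-12). EXO1 was at 13.0 and 15.0 CPM in the libraries labelled R1810A, against 24.4 and 23.7 CPM in WT (−0.78, SE 0.0793, adjusted p = 3.53e-06). BLM, the helicase that dissolves joined molecules, was lower in both (−0.73, adjusted p = 6.59e-06, and −0.58, adjusted p = 0.000129). None of the 3 subunits of the MRE11 complex, which senses and trims breaks, was lower in both experiments. MRE11A was at 38.3 and 40.2 CPM in siPADI2 libraries, against 27.9 and 29.9 CPM in siCtrl (0.44, SE 0.0919, adjusted p = 9.00e-05), and at −0.13 (adjusted p = 0.110) in the libraries labelled R1810A. RAD50 was 0.14 (adjusted p = 0.156) after siPADI2 and −0.24 (adjusted p = 0.00591) in the libraries labelled R1810A, and NBN 0.15 (adjusted p = 0.125) and 0.27 (adjusted p = 0.00199). RBBP8, the cofactor that starts trimming, was lower after siPADI2 (−0.24, adjusted p = 0.0274) and did not pass in the libraries labelled R1810A (−0.12, adjusted p = 0.137). The RBBP8 call was lost without siCtrl replicate 2 (adjusted p = 0.253), siPADI2 replicate 1 (0.102) or siPADI2 replicate 2 (0.162).

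The 4 kinases went different ways. ATM (ENSG00000149311.13, hg19 chr11:108093211-108239829), which signals double-strand breaks, was at 78.1 and 82.6 CPM in siPADI2 libraries, against 44.7 and 44.0 CPM in siCtrl (log2 fold change 0.86, SE 0.0845, edgeR adjusted p = 2.55e-11). ATM was at 67.0 and 71.6 CPM in the libraries labelled R1810A, against 63.5 and 71.3 CPM in WT, where the groups overlapped (0.04, adjusted p = 0.665). CHEK2, its downstream kinase, was at 9.46 and 10.2 CPM in siPADI2 libraries, against 18.1 and 17.9 CPM in siCtrl (−0.87, SE 0.106, adjusted p = 4.31e-09), and was also lower in the libraries labelled R1810A (−0.81, adjusted p = 2.58e-06). CHEK2 has 6 named pseudogene copies, so its counts are uncertain. ATR, which signals stalled replication, was 0.18 (adjusted p = 0.0630) after siPADI2 and 0.22 (adjusted p = 0.00549) in the libraries labelled R1810A, a call lost without WT replicate 1 (adjusted p = 0.123). CHEK1, the kinase below ATR, did not pass after siPADI2 (−0.16, adjusted p = 0.157) and was lower in the libraries labelled R1810A (−0.42, adjusted p = 0.000111).

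**Figure D2:**
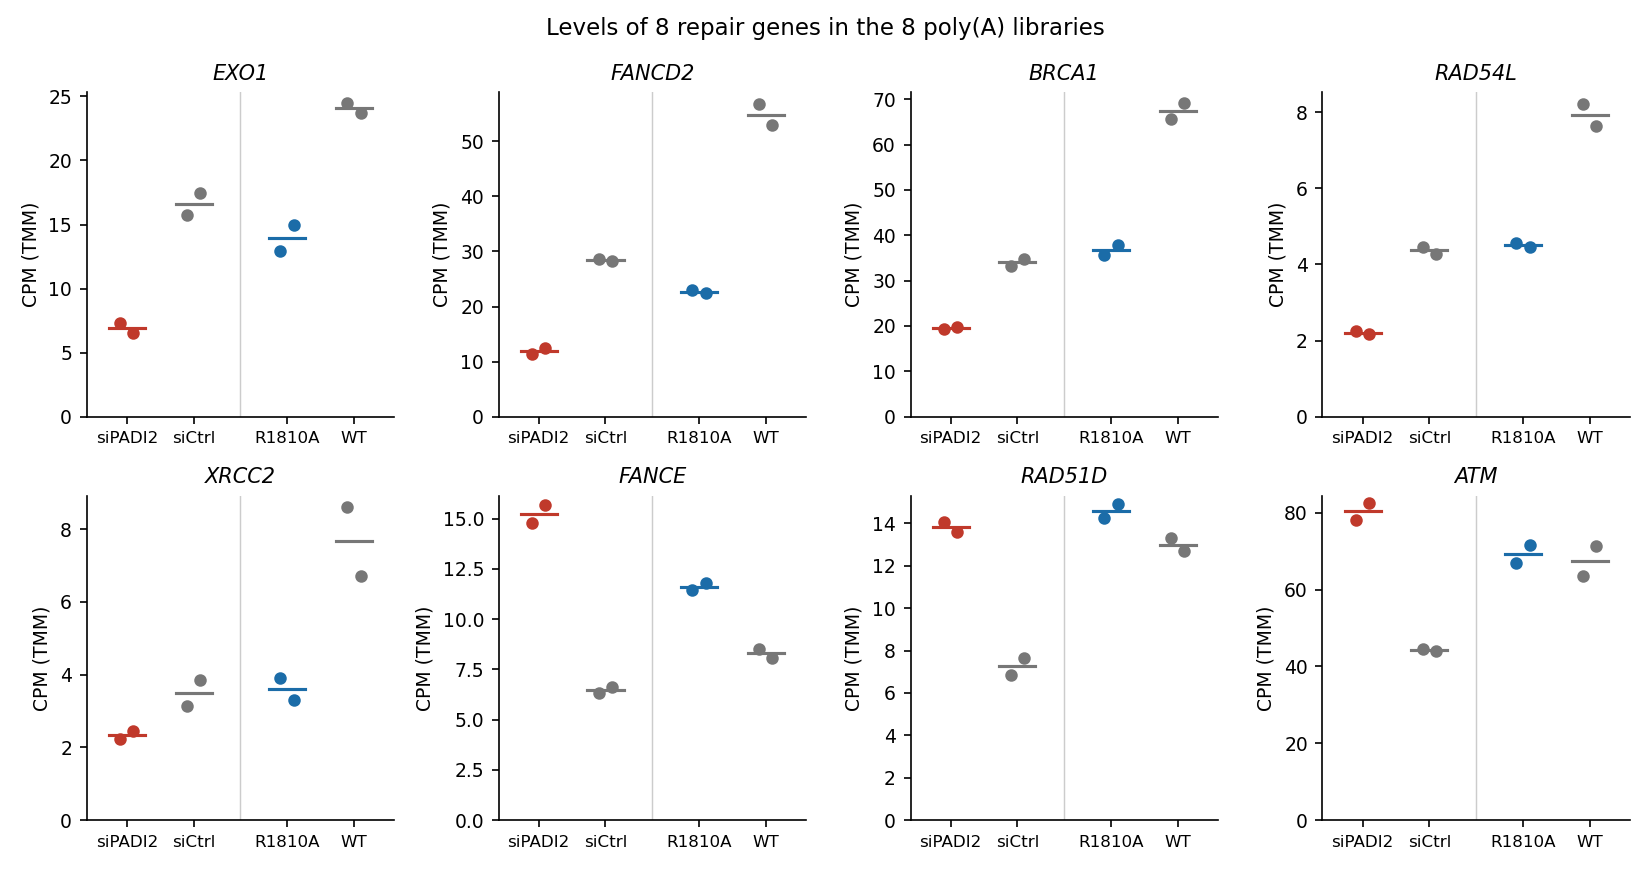
TMM-scaled CPM (y axis, from 0) of 8 repair genes in the 8 poly(A) libraries, 1 point per library and a line at each group's mean, with siPADI2 beside siCtrl and the libraries labelled R1810A beside WT. The 2 experiments were scaled separately, and EXO1, FANCD2, BRCA1, RAD54L and XRCC2 are lower in both, FANCE is higher in both, and ATM is at 78.1 and 82.6 CPM in siPADI2 libraries, against 44.7 and 44.0 CPM in siCtrl.

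The Fanconi core also changed in both directions. FANCE (ENSG00000112039.3, hg19 chr6:35420138-35434880), the core subunit that binds FANCD2, was at 14.8 and 15.7 CPM in siPADI2 libraries, against 6.31 and 6.64 CPM in siCtrl (log2 fold change 1.23, SE 0.113, edgeR adjusted p = 4.67e-12). FANCE was at 11.4 and 11.8 CPM in the libraries labelled R1810A, against 8.52 and 8.07 CPM in WT (0.49, SE 0.0811, adjusted p = 0.000272). FANCF, an adaptor of the core, was at 61.8 and 60.1 CPM in siPADI2 libraries, against 40.5 and 42.9 CPM in siCtrl (0.54, adjusted p = 9.84e-07), and was higher in the libraries labelled R1810A by 0.36 (adjusted p = 0.000269). These were the highest fold changes of the list in the libraries labelled R1810A. FANCL, the ubiquitin ligase of the core, was 0.36 (adjusted p = 0.0111) after siPADI2, a call lost without siCtrl replicate 1 (adjusted p = 0.133), and 0.07 (adjusted p = 0.502) in the libraries labelled R1810A. UBE2T, the E2 enzyme that works with FANCL, was at 14.6 and 13.6 CPM in siPADI2 libraries, against 22.1 and 22.0 CPM in siCtrl (−0.64, SE 0.101, adjusted p = 8.68e-07), and was lower in the libraries labelled R1810A (−0.34, adjusted p = 0.000646). FANCA, a scaffold subunit, was lower in both (−0.56, adjusted p = 2.45e-05, and −0.44, adjusted p = 0.000364).

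The other core genes were not called after siPADI2: FANCB (−0.13, adjusted p = 0.507), FANCC (0.14, adjusted p = 0.321), FANCG (−0.15, adjusted p = 0.196) and FANCM, the translocase that anchors the core on DNA (0.01, adjusted p = 0.961). In the libraries labelled R1810A FANCB (−0.69, edgeR adjusted p = 0.000355), FANCC (−0.36, adjusted p = 0.00563) and FANCG (−0.37, adjusted p = 0.000391) were lower. The FANCC call was lost without R1810A replicate 1 (adjusted p = 0.0583). FANCM passed in neither experiment (−0.16, adjusted p = 0.0899 in the libraries labelled R1810A) and was the only one of the 35 with no call in either poly(A) comparison.

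FANCD2 (ENSG00000144554.6, hg19 chr3:10068098-10143614), the ubiquitin-carrying target of the core, was at 11.3 and 12.5 CPM in siPADI2 libraries, against 28.6 and 28.3 CPM in siCtrl (log2 fold change −1.25, SE 0.101, edgeR adjusted p = 1.13e-13). FANCD2 was at 22.96 and 22.4 CPM in the libraries labelled R1810A, against 56.7 and 52.96 CPM in WT (−1.27, SE 0.0636, adjusted p = 6.14e-09). Its levels were thus 2.38 and 2.42 times lower in the 2 experiments. FANCD2, BRCA1, RAD52 and RBBP8 each have 1 named pseudogene copy, so their counts are uncertain. Its partner FANCI was at 35.8 and 36.6 CPM in siPADI2 libraries, against 66.1 and 67.7 CPM in siCtrl (−0.89, SE 0.0855, adjusted p = 1.59e-11), and at 73.0 and 77.8 CPM in the libraries labelled R1810A, against 127.9 and 126.0 CPM in WT (−0.75, adjusted p = 3.83e-07). SLX4, a scaffold for nucleases that cut at the crosslink, was 0.20 (adjusted p = 0.0711) after siPADI2. It was −0.19 (adjusted p = 0.0277) in the libraries labelled R1810A, a call lost without any 1 of the 4 libraries (adjusted p = 0.0588 to 0.237).

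With total counts in place of TMM scaling, log2 fold changes after siPADI2 shifted up (median of all genes 0.19, against 0.01), and 12 repair genes were lower and 13 higher in place of 16 and 8. Over all genes the calls moved the same way, to 3636 lower and 7398 higher in place of 5225 and 5395. The median of the 35 then changed sign (0.02). BARD1, XRCC3, RAD54B and RBBP8 lost their calls under that scaling (adjusted p = 0.102, 0.0598, 0.0937 and 0.630), while the calls of the other 12 lower genes held.

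The difference between the 2 poly(A) effects (siPADI2 minus R1810A, an edgeR interaction test over 8 libraries) was called for 11 of the 35 genes, against 26.1% of 19884 genes. It was positive for 9 and negative for 2, where 11.8% and 14.3% of all genes were. ATM differed most in the positive direction (0.79, SE 0.103, adjusted p = 6.47e-05), followed by RAD51D (0.73, SE 0.121, adjusted p = 0.000512), FANCE (0.72, SE 0.121, adjusted p = 0.000576) and MRE11A (0.54, SE 0.0948, adjusted p = 0.000769). These 4 genes were higher after siPADI2, and in the libraries labelled R1810A FANCE was higher by less and the other 3 did not pass. FANCC (0.47), BRCA2 (0.46), SLX4 (0.36), RAD50 (0.35) and PALB2 (0.34) also differed, with adjusted p between 0.0137 and 0.0283. EXO1 (−0.51, adjusted p = 0.0105) and UBE2T (−0.33, adjusted p = 0.0293) fell further after siPADI2. FANCD2, with −0.01 (SE 0.103, adjusted p = 0.964), and BRCA1, with 0.05 (SE 0.0964, adjusted p = 0.773), did not pass. With total counts the difference was positive for 16 genes and negative for 0, the median of all genes then being 0.14, against −0.0014. Leaving out 1 library left 4 to 10 positive and 0 to 2 negative calls, with 4 positive without WT replicate 2 and 5 without siPADI2 replicate 2. ATM, RAD51D, FANCE and MRE11A were called in each of those fits, while BRCA2, PALB2, RAD50, SLX4, FANCC, EXO1 and UBE2T were each lost in at least 2 of them (adjusted p up to 0.149).

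**Figure D3:**
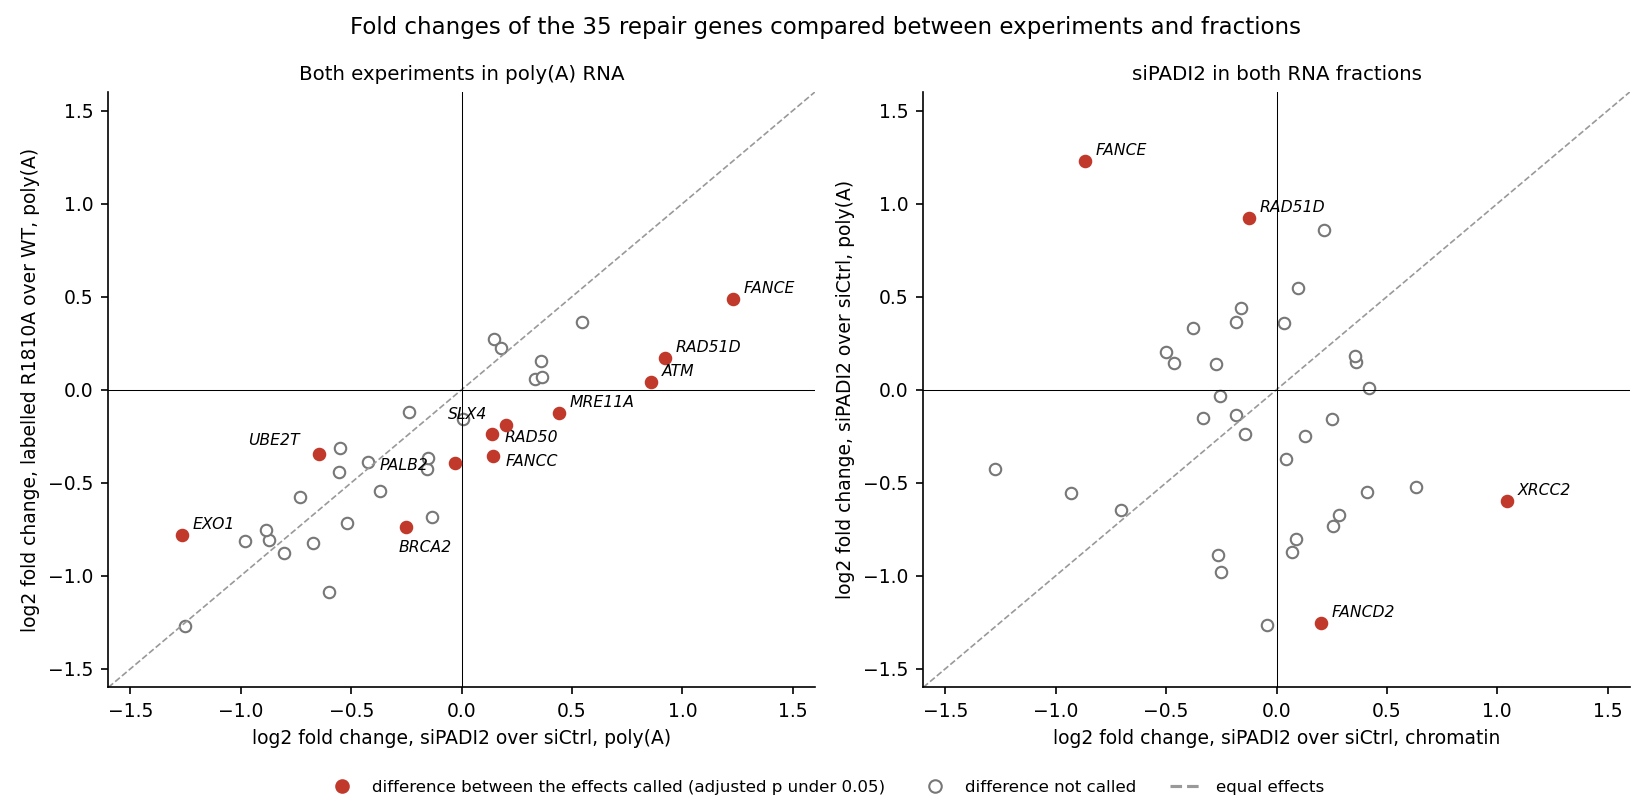
Log2 fold changes of the 35 repair genes set against each other, with siPADI2 over siCtrl (x) against the libraries labelled R1810A over WT (y) in poly(A) RNA on the left, and siPADI2 over siCtrl in chromatin RNA (x) against poly(A) RNA (y) on the right. Red points are genes whose 2 effects differed (adjusted p under 0.05), 11 on the left and 4 on the right, and the dashed line marks equal effects.

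In chromatin RNA, where the counts cover exons only, 4 repair genes were lower and 2 higher after siPADI2 and 29 did not pass, against 20.1% and 12.2% of 33879 genes. Only XRCC3 passed the test against a 1.5-fold change (lower, adjusted p = 0.00300; 10.4% of all genes were lower and 3.03% higher by it). XRCC3 (ENSG00000126215.9, hg19 chr14:104163946-104181841) was at 21.6 and 17.4 CPM in siPADI2 libraries, against 41.0 and 53.4 CPM in siCtrl (log2 fold change −1.28, SE 0.218, edgeR adjusted p = 1.91e-07). FANCA was at 46.1 and 46.8 CPM in siPADI2 libraries, against 76.8 and 100.0 CPM in siCtrl (−0.93, SE 0.212, adjusted p = 0.000150). The groups did not overlap for either gene, and both were also lower in poly(A) RNA. FANCE was at 6.74 and 9.57 CPM in siPADI2 libraries, against 15.6 and 14.3 CPM in siCtrl (−0.87, SE 0.304, adjusted p = 0.0182), which rests on 19 and 27 counts in siPADI2. SLX4 was lower as well (−0.50, adjusted p = 0.0445). XRCC2 was at 22.4 and 24.4 CPM in siPADI2 libraries, against 13.6 and 9.13 CPM in siCtrl (1.05, SE 0.250, adjusted p = 0.000321), and RAD54B was higher by 0.63 (adjusted p = 0.0362). FANCE, XRCC2 and RAD54B were thus called in opposite directions in the 2 RNA fractions. For RAD54B the difference between the fractions did not itself pass (0.96, edgeR interaction test, adjusted p = 0.149). BRCA1 (0.09, adjusted p = 0.775), EXO1 (−0.04, adjusted p = 0.903), FANCI (−0.26, adjusted p = 0.324) and FANCD2 (0.20, adjusted p = 0.468), which were lower in poly(A) RNA, did not pass here. Of the 12 proliferation markers 10 were lower in chromatin RNA, at 275 to 303 CPM summed in siPADI2 libraries, against 425 to 529 CPM in siCtrl.

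These chromatin calls moved with base composition. The longest transcripts of the 4 lower genes had GC contents of 55.4% to 63.8% and those of the 2 higher ones 37.5% and 39.8%. Over all genes the median log2 fold change was 0.45 in the lowest of 5 equal bins by GC content and −0.98 in the highest. With a correction for GC content in each library none of the 6 calls held: XRCC3 was at −0.26 (edgeR adjusted p = 0.380), FANCA at −0.33 (0.254), FANCE at −0.07 (0.894), RAD54B at 0.20 (0.576) and XRCC2 at 0.64 (0.0554), and SLX4 turned to 0.27 (0.324). Under that correction 5 other genes were lower: UBE2T (−1.11, adjusted p = 0.0133), RAD50 (−0.66, 0.0185), PALB2 (−0.62, 0.0286), FANCI (−0.62, 0.0210) and MRE11A (−0.58, 0.0436). Of the 33879 genes tested, 2831 were then called lower and 2222 higher. Of the 35 genes DESeq2 called XRCC3 and FANCA lower and 0 higher, where over all genes it called 3169 lower and 537 higher. Counts per gene were small, with a median of 74.5 over the 35 genes in siPADI2 chromatin libraries and 172 in siCtrl. PTPRC, a blood cell gene near 0 in poly(A) RNA, had 58.9 and 51.7 CPM in siPADI2 chromatin libraries, against 40.2 and 40.04 CPM in siCtrl. Chromatin values of the repair genes lie in the same range, and what such reads contribute to them was not tested.

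Without 1 chromatin library, 2 or 3 genes were lower and 0 to 2 higher. XRCC3 and FANCA were called in all 4 of those fits. XRCC2 was lost without siCtrl replicate 5 (adjusted p = 0.0686), FANCE without either siCtrl library or siPADI2 replicate 1 (0.0556 to 0.216), SLX4 without siCtrl replicate 5 or either siPADI2 library (0.0839 to 0.315), and RAD54B without siCtrl replicate 5 or either siPADI2 library (0.0535 to 0.328).

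**Figure D4:**
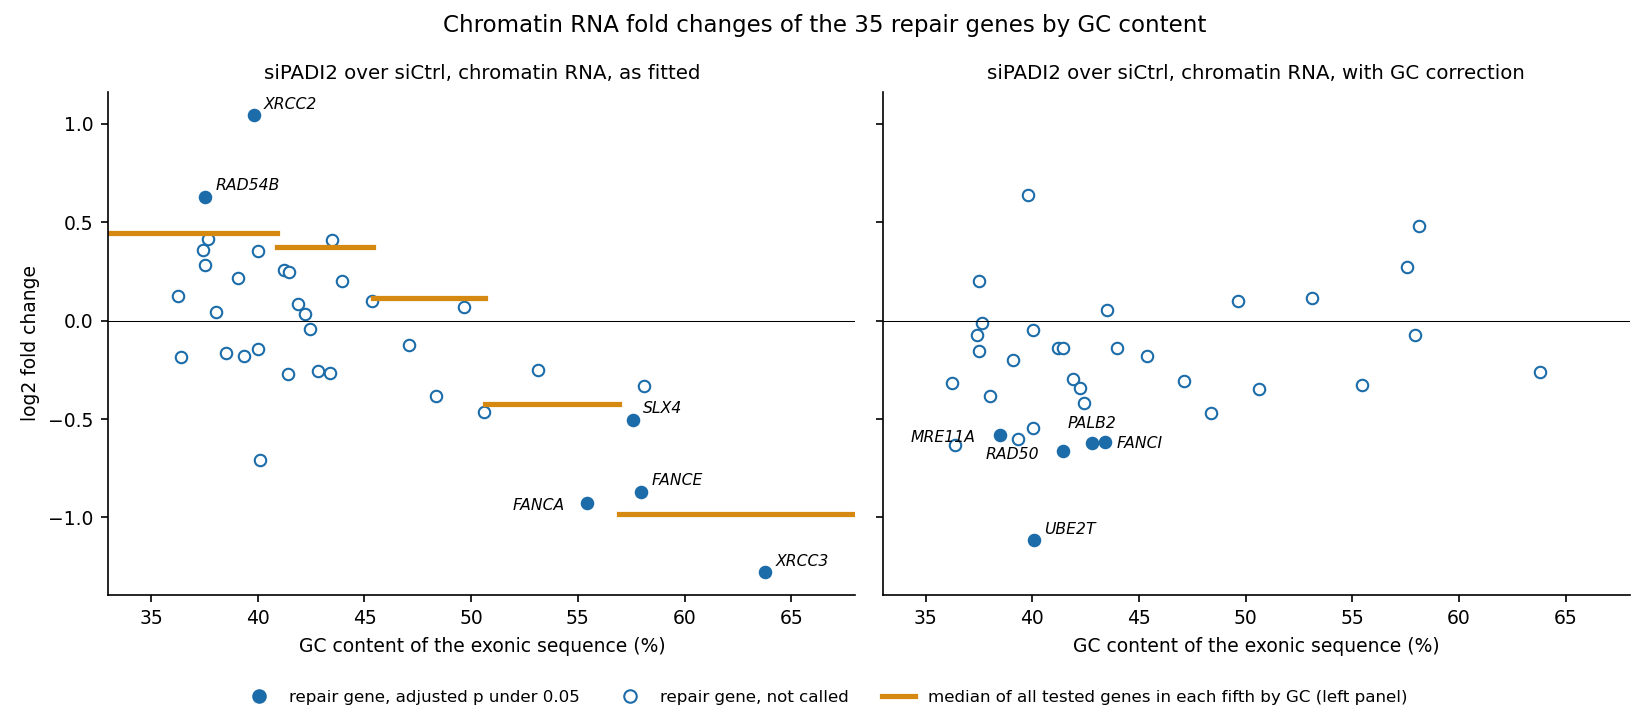
Log2 fold change of the 35 repair genes in chromatin RNA, siPADI2 over siCtrl (y axis), against GC content in percent (x axis), as fitted on the left and with a GC correction on the right. The GC content is that of the exonic sequence of each gene's longest transcript. Bars on the left are medians of all tested genes in 5 equal bins by GC content, from 0.45 in the lowest to −0.98 in the highest, and filled points passed an adjusted p of 0.05.

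The siPADI2 effect differed between the fractions for 4 repair genes, against 8.05% of 44615 genes (edgeR interaction test over 8 libraries, chromatin minus poly(A); 6.34% negative and 1.71% positive). It was lower in chromatin for FANCE (−2.30, SE 0.430, adjusted p = 9.11e-06) and RAD51D (−1.24, SE 0.405, adjusted p = 0.0326) and higher for XRCC2 (1.46, SE 0.409, adjusted p = 0.00798) and FANCD2 (1.25, SE 0.372, adjusted p = 0.0141). RAD51D was at 14.9 and 16.3 CPM in siPADI2 chromatin libraries, against 15.9 and 18.1 CPM in siCtrl, groups that overlapped, while its poly(A) level was higher after siPADI2. FANCD2 was at 63.2 and 62.0 CPM in siPADI2 chromatin libraries, against 55.1 and 53.7 CPM in siCtrl, while its poly(A) level was lower. With the GC correction, chosen after seeing the data, all 4 differences kept their sign and passed (FANCE −1.07, RAD51D −1.28, XRCC2 1.13, FANCD2 0.99). The number of differences called moved with the scaling and the libraries: 6 negative and 9 positive with total counts, 3 and 12 with RLE size factors, where the median of all genes was 0.14, against −0.16 with TMM, and 14 negative without siCtrl poly(A) replicate 2. FANCE, RAD51D, XRCC2 and FANCD2 also passed with total counts, with RLE size factors and with no filter on low counts. FANCE passed without any 1 library, whereas RAD51D and FANCD2 were lost without either siPADI2 poly(A) library (adjusted p = 0.0735 to 0.156) and XRCC2 without replicate 1 (0.0713).

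Other genes that act in these routes or beside them, not members of the list, also went both ways in poly(A) RNA. Of all genes tested, 27.9% were called lower and 28.8% higher after siPADI2, and 24.3% and 22.6% in the libraries labelled R1810A. Of 34 recombination partners 16 were lower and 8 higher after siPADI2, and 19 and 3 in the libraries labelled R1810A. RAD51AP1, which helps strands pair, was at 0.758 and 0.891 CPM in siPADI2 libraries, against 3.72 and 4.12 CPM in siCtrl (log2 fold change −2.25, edgeR adjusted p = 5.56e-14), and was at −2.28 in the libraries labelled R1810A. ABRAXAS1, a scaffold of the BRCA1-A complex, was higher in both (1.35 and 0.82), and the end-joining polymerase POLQ (−1.10 and −1.18) and RMI2 of the BLM complex (−0.88 and −1.03) were lower in both. Of 16 further Fanconi pathway genes 5 were lower and 2 higher after siPADI2, with the FANCM cofactor CENPS at −0.79, the nuclease ERCC4 at 0.72 and the nuclease DCLRE1B at −0.60. In the libraries labelled R1810A 10 of these 16 were lower and 1 higher, with DCLRE1B at −0.70, the ubiquitin ligase RFWD3 at −0.47 and CENPS at −0.45.

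Genes of 2 other repair routes are given for comparison, to be read beside the same shares of all genes (27.9% lower and 28.8% higher after siPADI2, 24.3% and 22.6% in the libraries labelled R1810A). Of 10 genes of non-homologous end joining 3 were lower and 4 higher after siPADI2 (XRCC6 −0.44, POLM 0.36, XRCC4 0.33), and 1 was lower and 1 higher in the libraries labelled R1810A (DCLRE1C −0.24, PAXX 0.20). Of 16 genes of nucleotide excision repair 3 were lower and 7 higher after siPADI2 (CETN2 −1.55, RAD23B −1.15, XPC 1.05), and 7 and 1 in the libraries labelled R1810A (RAD23B −1.01, CETN2 −0.51, ERCC2 −0.48). The medians after siPADI2 were −0.14 for recombination partners, −0.10 for Fanconi partners, 0.06 for end joining and 0.10 for excision repair, against −0.16 for the 35 repair genes. In the libraries labelled R1810A they were −0.23, −0.22, −0.02 and −0.15, against −0.37 for the 35. In chromatin RNA 20.1% of all genes tested were called lower and 12.2% higher. Of the recombination partners 6 were lower and 1 higher there (MUS81 −1.24, RECQL5 −1.03, SWI5 −0.88), and 5 Fanconi partners were lower and 0 higher (FAAP100 −1.71, MAD2L2 −1.11, DCLRE1B −0.99). There, 4 end-joining genes were lower and 1 higher (POLM −1.01, PAXX −0.79, POLL −0.62) and 4 excision repair genes were lower and 0 higher (DDB2 −1.12, ERCC2 −1.03, LIG1 −0.80).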

How the data were processed

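Deposited tables held raw counts of read pairs per gene, made by the authors with featureCounts 1.5.1 (poly(A)) and 1.4.6-p2 (chromatin) on exons of GENCODE 19 (hg19), strand option 2, per the file headers. Trimmomatic and STAR are named in the submitters' processing notes, with versions not given in the sources used here. Poly(A) libraries used a stranded mRNA kit and chromatin libraries a stranded total RNA kit with rRNA depletion, per the labels' protocols. The 4 libraries of a comparison were fitted alone with edgeR 4.0.16 (R 4.3.3, limma 3.58.1): TMM scaling, filterByExpr, robust quasi-likelihood F test and Benjamini-Hochberg adjustment over all genes tested, with 0.05 as threshold. A second rule tested against a fold of 1.5 (glmTreat). Differences between effects were contrasts in joint fits of 8 libraries. Standard errors are the log2 fold change divided by the square root of F. DESeq2 1.42.0, total counts, RLE factors, no filter, GC correction, a replicate block and leaving out each library were alternatives. The scripts were tested on simulated data. GC content came from the longest GENCODE 29 transcript of each gene, not from all exons counted. Genes named were the 35 listed ones and, per partner list, the 3 called genes with the largest change in any comparison, with their values in the others; 1 of them is not reported here. The members and lists were chosen with earlier results of these data known. Within each group the 2 libraries differed beyond sampling noise.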

Additional observations from a re-analysis of the deposited data

Results flagged for a closer look

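The effect of siPADI2 differed between chromatin RNA and poly(A) RNA for 4 of 35 repair genes by the interaction test in edgeR, where 8.05% of all genes were called, with chromatin minus poly(A) differences of −2.30 for FANCE, −1.24 for RAD51D, 1.46 for XRCC2 and 1.25 for FANCD2 (log2). The libraries of the fractions were made with different kits, so fraction and kit cannot be told apart. With the GC correction the FANCE difference was −1.07. The calls of RAD51D and FANCD2 were lost without either siPADI2 poly(A) library, and that of XRCC2 without siPADI2 poly(A) replicate 1.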

How the results depend on the processing

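With 2 libraries per group and 16 to 596 counts per repair gene in siPADI2 chromatin libraries, small chromatin differences were not detectable. The causes of the changes below were not tested.

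In siPADI2 poly(A) RNA, total counts gave 13 genes higher, a median of 0.025, and positive values for PALB2 (0.15), CHEK1 (0.025), FANCB (0.050) and FANCG (0.029). The GC correction gave a median of −0.28 and FANCM at −0.13, RLE factors gave FANCM at −0.00052, and no filter gave PALB2 at 0.0029. Leaving out 1 library gave medians of −0.23 to −0.15, FANCB at −0.24 to 0.022 and FANCM at −0.039 to 0.053. DESeq2 did not call RAD54B (adjusted p = 0.0622) or RBBP8 (0.0530).

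In the libraries labelled R1810A the median was −0.32 with the GC correction and −0.30 with total counts. SLX4 lost its call under total counts, DESeq2, the GC correction and the joint fit (adjusted p = 0.110 to 0.269). Leaving out 1 library gave ATM at −0.044 to 0.14 and RAD52 at −0.048 to 0.18.

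In chromatin RNA, DESeq2 called 2 genes lower and 0 higher, with BARD1 at −0.0012 and RAD51C at −0.0097. No filter left 1 higher, with BARD1 at −0.020 and RAD51C at −0.029, and total counts left 2 lower, with EXO1 at 0.058. With the GC correction 0 were higher, and signs turned for BRCA1 (−0.30), BRCA2 (−0.32), BARD1 (−0.38), BRIP1 (−0.15), RAD51C (−0.34), RAD54L (0.12), BLM (−0.14), NBN (−0.073), ATM (−0.20), ATR (−0.046), CHEK1 (−0.14), FANCD2 (−0.14), FANCF (−0.18), FANCG (0.48), FANCM (−0.013) and SLX4 (0.27). Leaving out 1 library gave 2 to 3 lower and 0 to 2 higher, with ranges of −0.52 to 0.28 for RBBP8, −0.50 to 0.11 for MRE11A, −0.012 to 0.23 for BRCA2, −0.12 to 0.17 for BARD1, −0.12 to 0.17 for RAD51C, −0.22 to 0.11 for EXO1, −0.49 to 0.52 for FANCF, −0.11 to 0.23 for CHEK2 and −0.11 to 0.26 for BRCA1. Over all genes 6822 were lower and 4140 higher, against 3169 and 537 with DESeq2 and 2831 and 2222 with the GC correction, and as few as 3678 and 1168 without siCtrl replicate 5.

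For siPADI2 minus R1810A, total counts gave 0 negative and 16 positive differences, no filter 1 negative, and leaving out 1 library 0 to 2 negative and 4 to 10 positive. Over all genes 2853 were negative and 2343 positive, against 1822 and 3870 with total counts. For chromatin minus poly(A), total counts gave 6 negative and 9 positive, RLE factors 12 positive, and the GC correction, chosen after seeing the data, 8 and 5. Leaving out 1 library gave 1 to 14 negative (14 without siCtrl poly(A) replicate 2) and 0 to 10 positive (9 or 10 without any 1 chromatin library or siCtrl poly(A) replicate 1, 0 and 1 without siPADI2 poly(A) replicates 1 and 2). Over all genes 2829 were negative and 763 positive, with 1663 positive under total counts, 3002 under RLE factors and 2321 under the GC correction; leaving out 1 library gave 1783 to 6176 negative and 420 to 2266 positive.

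With a replicate block, 17 repair genes were lower and 11 higher after siPADI2, 26 and 6 in the libraries labelled R1810A, and the difference was negative for 2 and positive for 12; over all genes calls also rose, to 5683 lower and 5830 higher after siPADI2, 6607 and 5975 in the libraries labelled R1810A (in place of 4662 and 4348), and 4080 negative and 3684 positive differences. BRCA2 passed after siPADI2 with the block (−0.25, adjusted p = 0.0327). Deviations of libraries with the same number correlated at 0.1 (siPADI2) and 0.439 (R1810A) over 2 pairs each. The labels tie the numbers to no shared culture or day, and 2 pairs cannot settle whether the numbers pair the libraries. No paired analysis was possible for chromatin RNA because its groups share only replicate number 1.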
